A study of Mus musculus with 23 samples.

Results

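Mouse genes whose symbol is Gpr followed by a number and at most 1 letter were examined in single excitatory neurons of the arcuate hypothalamus, the hypothalamic nucleus that holds the Pomc and Kiss1 neurons. The symbol alone selected 92 of the 23373 genes in the deposited table. This rule used no expression value, but it was chosen with earlier results of these data known. The study profiled 23 single neurons picked by hand as GFP+ cells from 2 young adult male mice of mixed background that carried vGLUT2-IRES-Cre and a Cre-dependent L10-GFP allele (loxSTOPlox-L10-GFP). Cre was made under the gene for the vesicular glutamate transporter VGLUT2 (Slc17a6), so GFP marks cells that had used this gene. No cell lacked the transgenes and none was treated. No label ties a cell to a mouse. The 23 cells therefore make up a single group with no biological replicates, and the values below are descriptions with no test.

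G protein-coupled receptors cross the membrane in 7 helices and pass signals to G proteins, which raise or lower second messengers such as cyclic AMP. Orphan receptors are those for which no natural ligand is agreed. Hypothalamic neurons read hormones and peptides through receptors of this superfamily, and several orphans are known mainly from where they are expressed. The Gpr symbols are wider than the orphans, however. By general knowledge, 47 of the 92 are class A receptors with no agreed ligand, 17 are class A receptors with a proposed ligand, 3 are class C, 16 are adhesion receptors and 9 encode intracellular or transporter-like proteins that are not classical receptors. Of the 92, 19 now have another RefSeq symbol, such as Adgra1 for Gpr123.

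The results turn on Gpr165 and Gpr101, both on the X chromosome. Gpr165 spans 96713468 to 96719388 on the plus strand and Gpr101 spans 57496668 to 57503757 on the minus strand (mm10), and both are protein coding. Gpr165 is an orphan of unassigned function. Gpr101 is an orphan that raises cyclic AMP and whose duplication causes X-linked acrogigantism in people. The 250 bases before each start (RefSeq, GRCm38.p6) are shown because these 2 genes set apart the peptide types described below. Capitals mark matches, on either strand, to the TATA box TATAAA, the CAAT box core CCAAT, the cyclic AMP response core TGACG, the nuclear receptor core AGGTCA or the GC box GGGCGG.
Gpr165, chrX:96713218-96713467, plus strand: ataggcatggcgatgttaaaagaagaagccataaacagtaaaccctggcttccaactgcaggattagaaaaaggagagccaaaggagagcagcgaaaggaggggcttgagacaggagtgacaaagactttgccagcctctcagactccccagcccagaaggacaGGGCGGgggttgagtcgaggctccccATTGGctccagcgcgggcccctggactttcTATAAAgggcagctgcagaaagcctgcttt
Gpr101, chrX:57503758-57504007, minus strand: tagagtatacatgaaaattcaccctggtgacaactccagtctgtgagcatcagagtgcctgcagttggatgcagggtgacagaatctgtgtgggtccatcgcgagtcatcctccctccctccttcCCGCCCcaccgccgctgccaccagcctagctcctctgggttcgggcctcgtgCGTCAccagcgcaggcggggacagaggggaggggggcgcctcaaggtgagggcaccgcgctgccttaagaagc

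The Gpr165 window held TATAAA at -30, CCAAT (read as ATTGG) at -60 and GGGCGG at -86 from the start, and its GC content was 54.4% with 6 CpG. The Gpr101 window held TGACG (read as CGTCA) at -73 and GGGCGG (read as CCGCCC) at -125, with 62.4% GC and 13 CpG. The pair thus shared only GGGCGG among the capitalised motifs. CANNTG, left in lower case, matched at -189 in Gpr101 and at -198 and -21 in Gpr165. Among 32851 RefSeq promoter windows of this length, TATAAA was present in 12.4%, CCAAT in 33.8%, TGACG in 17.8%, AGGTCA in 14.0%, GGGCGG in 32.7% and CANNTG in 66.2%, and the medians were 52.4% GC and 6 CpG. A match is a run of letters, not a shown site.

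Levels are in FPKM, fragment counts divided by gene length and library size, as deposited. FPKM corrects for length and library size but hides depth. Per cell, the FPKM summed to 379513 to 687511 and 1961 to 4616 genes (median 4245) were at 10 FPKM or more. Relative depth, read from the ratios of low values between cells, ranged from 1 in cell 14 to 4.17 in cell 20. Sample titles carry 1 of 2 unexplained prefixes, here set 1 (cells 1 to 15) and set 2 (cells 16 to 23). Neuron markers summed to 787 to 3053 FPKM per cell over 7 genes: Uchl1, Stmn2 and Tubb3 were at 10 FPKM in all 23 cells, Snap25 in 19 and Slc17a6 in 18, but Rbfox3 and Map2 in 0. Slc17a6 ranged from 0.520 in cell 11 to 139, with a median of 32.1. Microglia markers summed to 0.0729 to 8.86 and oligodendrocyte precursor markers to 0 to 8.85 FPKM, with none of either list at 10 in a cell. Astrocyte markers summed to 0.489 to 313 FPKM, with 4 of 6 at 1 in no cell. The remaining astrocyte markers were Aldoc, at 10 FPKM in 16 cells (up to 312), and Gfap, at 10 in 1 cell (cell 12). Oligodendrocyte markers summed to 0.0341 to 54.6 FPKM (highest in cell 23), with 4 of 5 at 10 in a cell. Endothelial markers summed to 0 to 18.4 FPKM (highest in cell 21), with Pecam1 at 10 in 3 cells. Red blood cell markers summed to 3.45 to 2395 FPKM. Cells 20 and 23 stood apart from the label male. The highest of 4 Y-linked genes was 0.127 and 0.143 FPKM there, against at least 6.79 in each of the other 21 cells. Xist, the X-linked RNA of female cells, was at 0.596 and 2.69 FPKM in cells 20 and 23, and at up to 5.26 elsewhere (cell 13). The type differences of Gpr165 and Gpr101 and the counts for Kiss1-high cells are given with and without cells 20 and 23. The correlation of Gpr165 with Pomc is given only with them.

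Peptide type was read from Pomc, the precursor of alpha-MSH, and from Kiss1, which encodes kisspeptin. The 8 Pomc-high cells had Pomc at 1000 FPKM or more (cells 4, 5, 6, 11, 12, 13, 21 and 22) and the 5 Kiss1-high cells had Kiss1 at 500 or more (cells 8, 17, 19, 20 and 23). The other 10 cells were neither. Just below the Pomc limit were cell 3 (922) and cell 16 (599), and just above it cell 22 (1488). No cell lay near the Kiss1 limit: the highest below was 62.5 in cell 21 and the lowest above was 895 in cell 23. Type and title set overlapped unevenly, since 6 of 8 Pomc-high cells were in set 1 and 4 of 5 Kiss1-high cells in set 2.

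Most Gpr genes were scarce. At 10 FPKM or more, 39 of 92 (42.4%) were found in at least 1 cell, against 45.2% of all 23373 genes. At least 2 cells held 27 of them (29.3%, against 36.9%), and at least 12 cells held 6 (6.52%, against 15.0%). So the share reaching 10 FPKM at all was near that of all genes, while the share present in most cells was less than the background. Of the others, 24 of 92 reached 1 but not 10 FPKM, a larger share than the 4301 of all 23373 genes. In no cell did 29 of 92 reach 1 FPKM, a smaller share than the 8499 of all 23373 genes. These 29 included 12 listed at 0 throughout (13.0%, against 25.6% of all genes). Among those 12 were Gpr37, Gpr50 and Gpr21. Among genes that reached 10 FPKM, the median number of cells was 2 for Gpr genes and 6 for all genes. Only Gpr165, Gpr101 and Gpr108 exceeded 100 FPKM in any cell, 3.26% of the Gpr genes against 10.4% of all genes.

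By role, 25 of 47 class A orphans and 1 of 17 class A receptors with a proposed ligand reached 10 FPKM in a cell. So did 1 of 3 class C members, 4 of 16 adhesion receptors and 8 of 9 intracellular or transporter-like proteins. This split depends on the roles, which were assigned from general knowledge. The 6 genes found in 12 cells or more were the orphans Gpr165, Gpr19 and Gpr101 and the intracellular proteins Gpr108, Gpr137 and Gpr89. The plot of cells per gene shows this order.

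**Figure D1:**
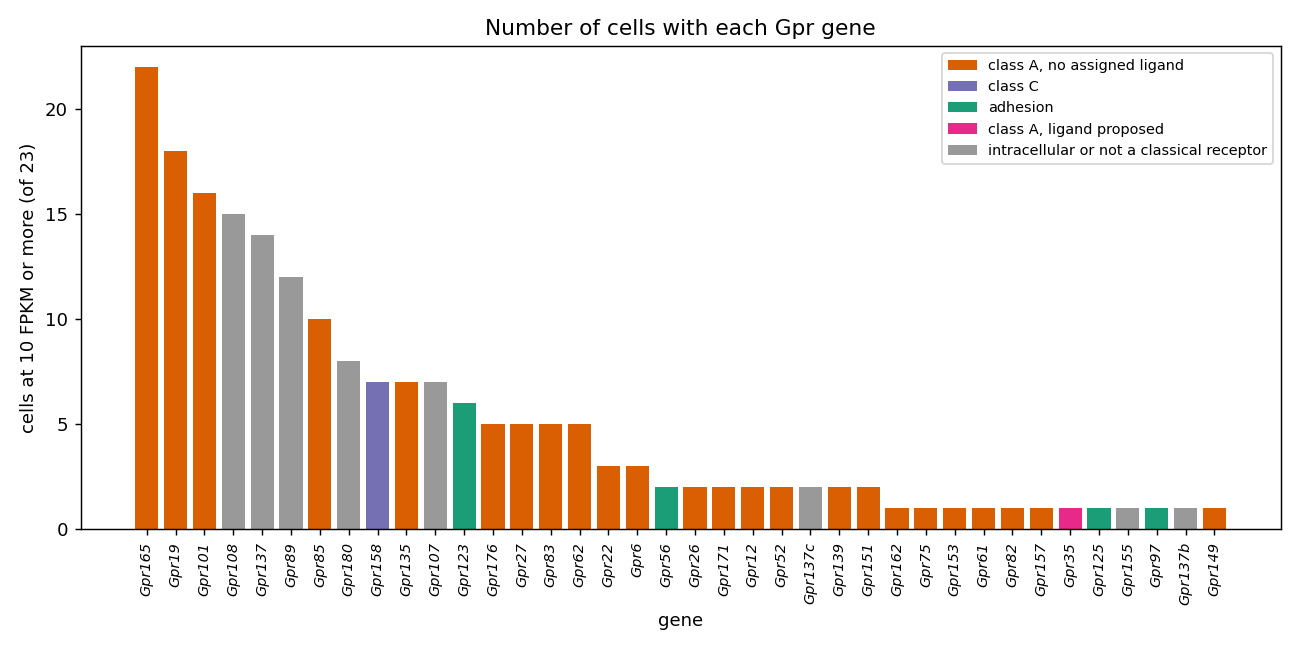
Number of cells, of 23, at 10 FPKM or more for 38 of the 39 Gpr genes that reached this level in a cell, coloured by role. Bars fall from 22 cells for Gpr165 to 10 for Gpr85, and 12 genes were found in 1 cell each.

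Gpr165 was the most widespread member. It was at 10 FPKM or more in 22 of 23 cells, or 95.7%, with an exact 95% interval by Clopper-Pearson of 78.1 to 99.9% that covers counting error only, with a median of 51.7 FPKM. In the Pomc-high cells 4, 5, 6, 11, 12, 13, 21 and 22 it was at 38.8, 38.0, 11.9, 45.7, 13.9, 5.48, 29.1 and 51.7 FPKM. In the Kiss1-high cells 8, 17, 19, 20 and 23 it was at 288, 27.4, 238, 231 and 316 FPKM. In the other cells it ranged from 23.9 in cell 14 through a median of 114 to 308 in cell 2. Thus 11 of the 15 cells that were not Pomc-high lay above each Pomc-high cell, and the ranges overlapped through cells 3, 7, 14 and 17. Cell 3 had 35.6 FPKM and was also the cell nearest below the Pomc limit.

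On the log2(FPKM + 1) scale, Gpr165 averaged 4.63 ± 1.08 (SD, 8 cells) in Pomc-high cells and 6.89 ± 1.30 (15 cells) elsewhere, a difference of -2.26. This difference ranked 18 from the lowest among the 8629 genes at 10 FPKM in at least 2 cells. It was -2.35 within set 1 (6 against 9 cells, rank 34) and -1.78 within set 2 (2 against 6 cells, rank 377). Without cells 20 and 23 it was -2.08 (rank 27). Across the 23 cells, log2 levels of Gpr165 and Pomc had Pearson r of -0.84 and Spearman rho of -0.82, and r was -0.80 without the 2 cells farthest from the median of Pomc. Ranked by Pearson r with Pomc, Gpr165 was 1 from the lowest among 8628 genes, whose median r was 0.03. Within set 1 (15 cells) r was -0.88 and Gpr165 again ranked 1, and within set 2 (8 cells) r was -0.70, or -0.45 without the 2 cells farthest from the median. These correlations were not computed without cells 20 and 23, which had Pomc at 25.6 and 40.5 FPKM and Gpr165 at 231 and 316. Each point is 1 library, so both genes share its depth and amplification.

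Gpr101 separated the Kiss1-high cells from most of the rest. It reached 10 FPKM in 16 cells (69.6%, 47.1 to 86.8%), with a median of 24.6 FPKM. In the Kiss1-high cells 8, 17, 19, 20 and 23 it was at 1.51, 0.953, 0.219, 0.185 and 0.279 FPKM. In the Pomc-high cells it ranged from 4.70 in cell 12 through a median of 34.7 to 93.4 in cell 6, and in the other cells from 0.515 in cell 15 through 54.7 to 314 in cell 2. It was therefore at 10 FPKM in 0 of 5 Kiss1-high cells and in 16 of the 18 others (88.9%). These counts describe these cells only, since cells are not replicates of a type. The exceptions were cells 12 and 15, and cell 15 overlapped the Kiss1-high range.

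The mean log2(FPKM + 1) of Gpr101 was 0.64 ± 0.49 (SD, 5 cells) in Kiss1-high cells and 5.29 ± 1.86 (18 cells) elsewhere. The difference of -4.66 ranked 1 from the lowest of 8629 genes, whose median was -0.45. Within set 2, with 4 cells on each side, Gpr101 was at 10 FPKM in 4 of 4 cells that were not Kiss1-high and in 0 of 4 that were, a difference of -5.13 (rank 2). Set 1 had 1 Kiss1-high cell, with a difference of -3.88 (rank 140). Without cells 20 and 23 the difference was -4.43 (rank 10), and without cell 17, which had the fewest genes, -4.74 (rank 2). A pattern written after these values were seen, 10 FPKM in at least 16 of the 18 cells and in no Kiss1-high cell, was met by 8 of 23373 genes (0.0342%). The same 5 Kiss1-high cells held Gpr165 at 27.4 to 316 FPKM and had 1961 to 4147 genes at 10 FPKM. The part of library quality in the low Gpr101 was not tested.

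**Figure D2:**
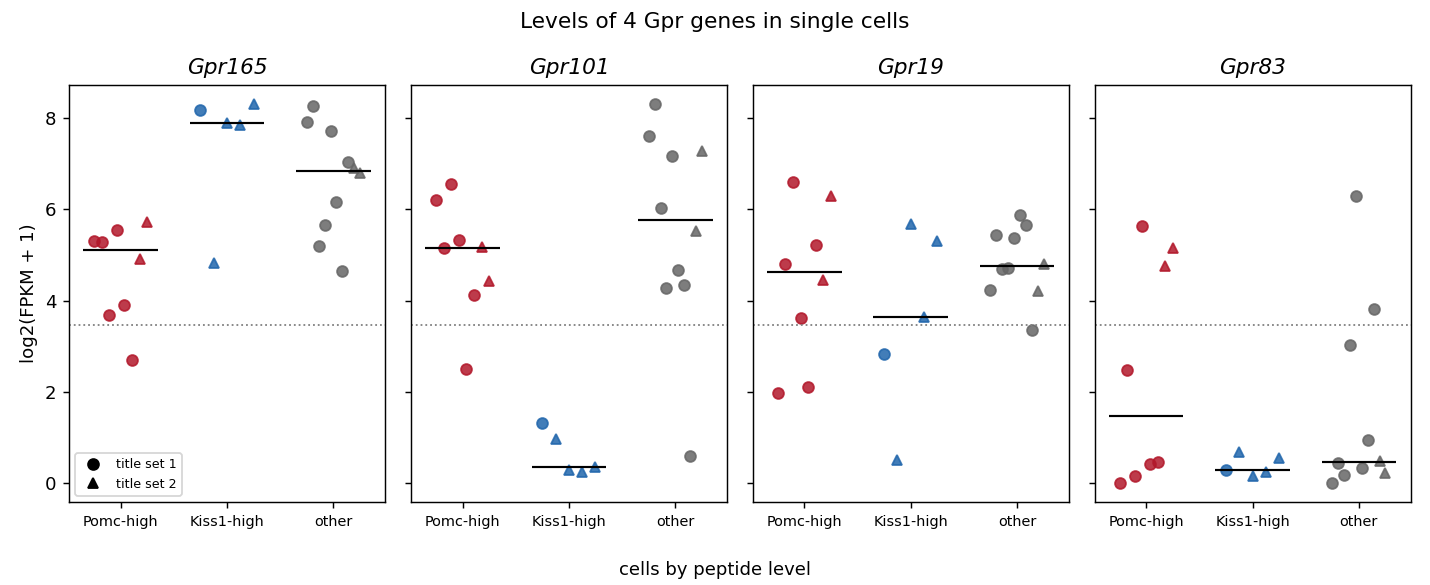
Level of Gpr165, Gpr101, Gpr19 and Gpr83 on the log2(FPKM + 1) scale in each cell, by peptide type, with circles for title set 1 and triangles for set 2. Lines are medians and the dotted line is 10 FPKM. All 5 Kiss1-high cells lie under the dotted line for Gpr101, and 7 of 8 Pomc-high cells lie above it for Gpr165.

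Gpr19, a class A orphan on chromosome 6 (134869092 to 134897925, minus strand), was found in each type. It reached 10 FPKM in 18 cells (78.3%, 56.3 to 92.5%), with a median of 25.4 FPKM, a lowest value of 0.417 in cell 17 and a highest of 96.4 in cell 6. Type medians were 23.9 FPKM in Pomc-high, 11.5 in Kiss1-high and 26.2 in other cells, with overlapping ranges. Each cell had at least 1 of Gpr165, Gpr19 and Gpr101 at 10 FPKM, and 14 of 23 had all 3 of them.

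The leading Gpr gene of a cell followed these patterns. It was Gpr165 in 11 cells, which were all 5 Kiss1-high cells and 6 of the other cells. It was Gpr101 in 5 cells and Gpr19 in 4. In Pomc-high cells the leader was Gpr19 in 3, Gpr101 in 2, and Gpr6, Gpr108 and Gpr137b in 1 each. Gpr165 led in none of them.

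Further class A orphans were found in fewer cells. Gpr85, also known as SREB2 and highly conserved in brain, was at 10 FPKM in 10 cells, with a median of 8.30 and a highest value of 34.5 in cell 22. It was at 10 FPKM in 4 of 8 Pomc-high, 1 of 5 Kiss1-high (cell 20) and 5 of 10 other cells. Gpr135 was found in 7 cells, up to 86.9 FPKM in cell 20. Gpr83, a receptor known from hypothalamic energy balance, was found in 5 cells and in no Kiss1-high cell. Cell 9 had 77.5 FPKM, cell 11 had 48.7, cell 22 had 34.6, cell 21 had 25.9 and cell 15 had 13.0. All 5 Kiss1-high cells were at 0.610 FPKM or less, and so were 10 of the remaining 18.

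Gpr176, a receptor known from the circadian clock, was found in cells 5, 7, 11, 22 and 23, up to 35.3 FPKM. Gpr27 was found in cells 3, 4, 10, 11 and 21, up to 17.1, and Gpr62 in cells 2, 6, 18, 20 and 21, up to 23.3. Gpr22 was found in cells 1, 7 and 11, up to 22.004. Gpr3, Gpr6 and Gpr12 are related receptors that raise cyclic AMP without added ligand. For Gpr6, cell 5 had 59.2 FPKM, cell 19 had 15.4 and cell 2 had 11.6, with Gpr12 at 19.7 in cell 10 and 18.4 in cell 3. Gpr3 reached 10 FPKM in no cell and peaked at 8.15 in cell 5, which was also the highest cell of Gpr6.

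In 2 cells each were Gpr26 (35.3 in cell 23, 12.8 in cell 7), Gpr52 (34.7 in cell 18, 15.7 in cell 15), Gpr139 (43.6 in cell 3, 16.5 in cell 9), Gpr151 (35.7 in cell 10, 14.6 in cell 13) and Gpr171 (12.5 in cell 7, 10.1 in cell 6). In 1 cell each were Gpr149 (19.8 in cell 5), Gpr82 (15.6 in cell 6), Gpr162 (15.3 in cell 7), Gpr61 (14.2 in cell 12), Gpr157 (12.9 in cell 13), Gpr75 (11.7 in cell 9) and Gpr153 (10.01 in cell 21). Of these, Gpr162 was at 1 FPKM or more in 17 cells, so its level was low but widespread, whereas Gpr151 was at 1 in only those 2 cells. The loci of Gpr171, Gpr22, Gpr52, Gpr62, Gpr82, Gpr137 and Gpr176 overlap another gene, and their reads may be shared with it.

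Among class C members, Gpr158, a metabotropic glycine receptor enriched in brain, was at 10 FPKM in 7 cells. It was found in 6 of 10 other cells, in 1 of 5 Kiss1-high cells (38.2 FPKM in cell 20) and in 0 of 8 Pomc-high cells. These counts too describe these cells only. Without cells 20 and 23, Gpr158 and the adhesion receptor Gpr123 were at 10 FPKM only in the other cells. The ranges overlapped below the threshold: Pomc-high cells reached 8.57 FPKM and the other cells started at 2.37. Gpr179 peaked at 6.79 in cell 14.

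Adhesion receptors, which carry long extracellular domains that bind other cells or matrix, were mostly low. Of these, 9 of 16 reached 1 FPKM in no cell, against 8499 of all 23373 genes. Gpr123 was at 1 FPKM or more in 22 cells but at 10 in only 6, up to 19.2 in cell 23. Gpr56 was at 1 in 18 cells and at 10 in cells 9 and 12, up to 14.2. Gpr125 (14.7 in cell 3) and Gpr97 (10.8 in cell 18) reached 10 in 1 cell each. Gpr133 followed a subset of Pomc-high cells. It was at 5.90, 5.57, 8.70 and 5.59 FPKM in cells 4, 6, 12 and 13 and at most 0.410 in any other cell. These 4 cells also held Cartpt, the CART peptide gene, at 15794 FPKM or more, against at most 4741 elsewhere. Only 1 other gene, Pmp22, was likewise at 5 FPKM or more in these 4 cells and below 1 elsewhere (2 of 23373 genes, 0.00856%), by a pattern chosen after the values were seen.

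The intracellular and transporter-like members led the rest: 8 of 9 reached 10 FPKM in a cell. Gpr108, a Golgi and endosome protein, was at 10 FPKM in 15 cells, with a median of 24.5 and up to 132 in cell 11. Gpr137, a lysosomal protein, was found in 14 cells (median 16.9, up to 76.2 in cell 23), and Gpr89, a Golgi pH regulator, in 12 (median 11.7, up to 40.2 in cell 20). Gpr180 was found in 8 cells, up to 68.1 in cell 15, and Gpr107 in 7, up to 28.8 in cell 1. Gpr180 was all or none: no cell lay between 1 and 10 FPKM. Gpr137b (24.4 in cell 12) and Gpr155 (11.0 in cell 20) reached 10 in 1 cell each.

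**Figure D3:**
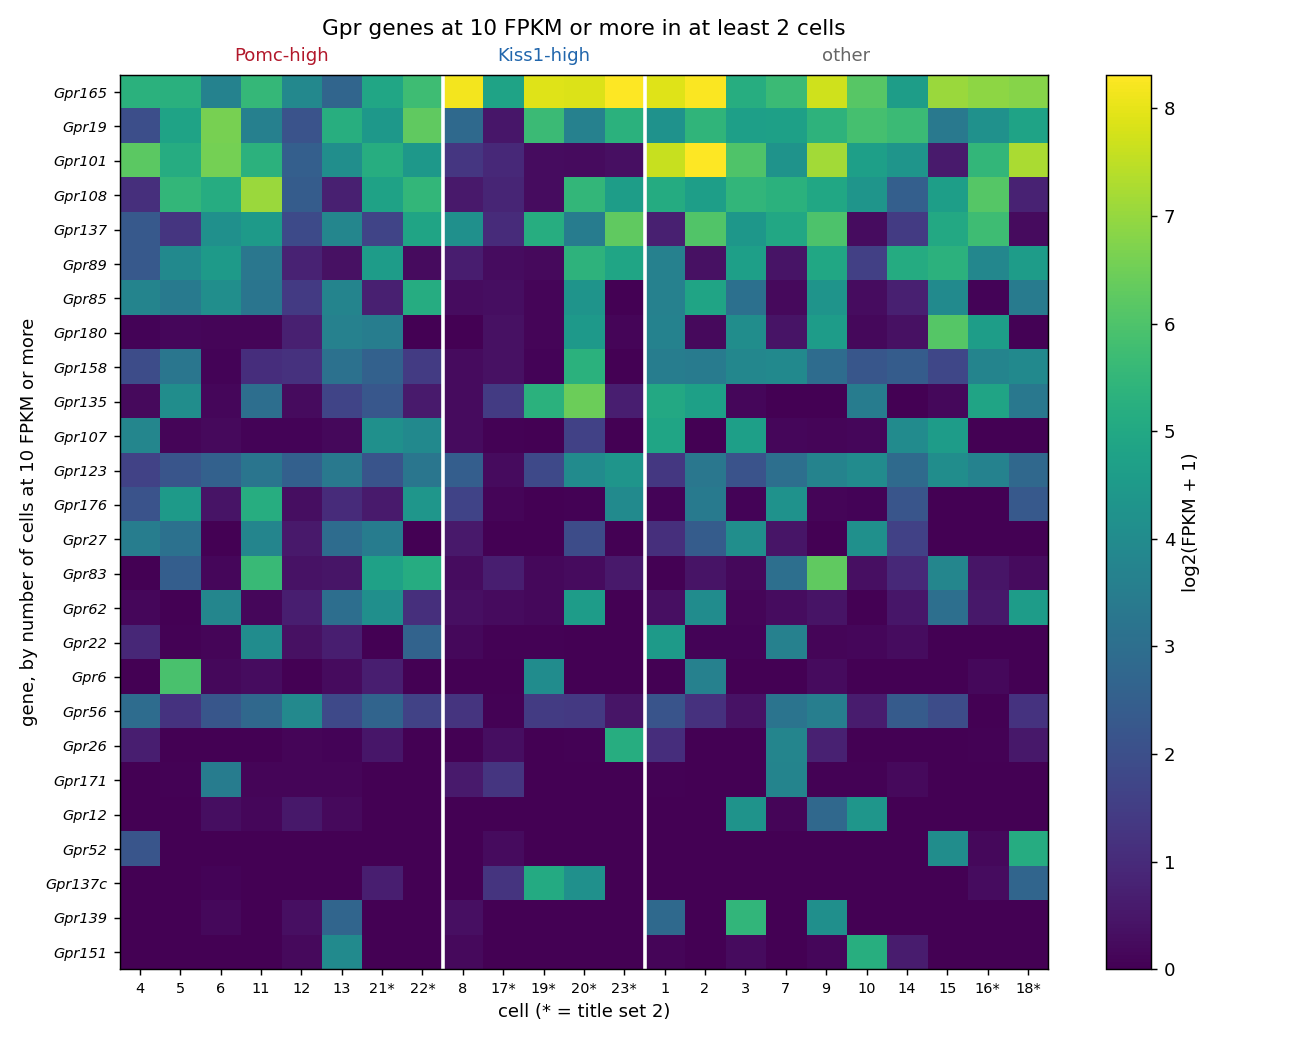
Level of 26 of the 27 Gpr genes at 10 FPKM or more in at least 2 cells, in each of the 23 cells, on the log2(FPKM + 1) scale, with cells ordered by peptide type. Gpr165 is present in nearly all columns, Gpr101 is near 0 in the 5 Kiss1-high columns, and the lower genes are filled in scattered single cells.

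Restriction of Gpr genes to 1 peptide type rested on small numbers. Of the 27 genes at 10 FPKM in at least 2 cells, 0 were found only in Pomc-high cells (1.73% of all 8629 such genes were). Only in Kiss1-high cells was 1 found (1.02%), and only in other cells 3 (3.6%). For Kiss1-high and other cells the Gpr shares were above those of all genes, but they rest on 1 and 3 genes. They were not matched for number of cells. Among genes that reached 10 FPKM, the median was 2 cells for Gpr genes and 6 for all genes, and a gene in fewer cells falls within 1 type more easily. The Kiss1-high gene was Gpr137c, at 32.8 FPKM in cell 19 and 16.99 in cell 20, and it was lost when cells 20 and 23 were left out because 1 cell then remained. Gpr137c was above 0 in 6 of 8 set 2 cells and in 1 of 15 set 1 cells, so a comparison over both sets mixes type with title set. Within set 2 its mean log2(FPKM + 1) was 2.63 ± 2.39 (SD) in the 4 Kiss1-high cells. It was 0.92 ± 1.23 in the 4 cells that were not Kiss1-high. Cell 8, the 1 Kiss1-high cell of set 1, was at 0 FPKM. The 3 genes of the other cells were Gpr12, Gpr52 and Gpr139, each in 2 cells.

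By the size rule of a mean log2 difference of 1 or more, 5 of 27 genes were higher in Pomc-high cells (13.4% of all genes were) and 1 was lower (4.91%). The higher ones were Gpr85 (1.22), Gpr83 (1.203), Gpr176 (1.10), Gpr27 (1.09) and Gpr101 (1.00), and the lower one was Gpr165. Within set 1, 0 of these 5 passed the rule, and Gpr101 differed by 0.05 there. The median difference was -0.03 over the 27 Gpr genes and 0.14 over all genes. Relative to the latter, 2 of 27 were higher (Gpr85 and Gpr83, against 9.94% of all genes) and 3 were lower (Gpr165, Gpr180 and Gpr135, against 7.02%).

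In Kiss1-high cells, 2 of 27 were higher (7.13% of all genes) and 9 were lower (27.8%). Gpr137c (1.89) and Gpr165 (1.67) were the higher ones. The lower ones were Gpr101, Gpr108 (-1.87), Gpr85 (-1.79), Gpr83 (-1.55), Gpr158 (-1.38), Gpr107 (-1.35), Gpr27 (-1.24), Gpr56 (-1.08) and Gpr19 (-1.05). The Gpr165 difference was 1.14 within set 2, 1.23 without cells 20 and 23, and 0.975, under the size rule, with Kiss1-high from 1000 FPKM. Leaving out cell 17 gave 2.32. Without cells 20 and 23, 2 of 27 Gpr genes were higher in the Kiss1-high cells (9.86% of all genes) and 14 were lower (38.5%). Only 3 Kiss1-high cells then remained, cell 17 among them. Genes in general were lower in the Kiss1-high cells, with a median of -0.45 against -0.71 over the Gpr genes. Without cell 17, which had 1961 genes at 10 FPKM, the median of all genes was -0.22. The Kiss1-high cells had a median of 3891 genes at 10 FPKM against 4305 in Pomc-high and 4367 in other cells. Relative to the median of all genes, 5 of 27 Gpr genes were higher (Gpr165, Gpr137, Gpr135, Gpr26 and Gpr137c, against 15.1% of all genes) and 4 were lower (Gpr101, Gpr108, Gpr85 and Gpr83, against 14.5%), with Gpr101 at -4.20 and Gpr165 at 2.13. With each cell's FPKM rescaled to a common sum, the median of all genes was -0.64, Gpr101 differed by -5.28 and Gpr165 by 1.504. The part of the number of genes per cell in these lower values was not tested.

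Per cell, the median number of Gpr genes at 10 FPKM was 10, from 1 in cell 17 and 2 in cell 8 to 13 in cells 3, 9 and 20. Type medians were 9.5 in Pomc-high, 6 in Kiss1-high and 10 in other cells, with overlapping ranges. Over the 23 cells the number had Pearson r of 0.70 and Spearman rho of 0.51 with the number of all genes at 10 FPKM, or r of 0.52 without the 2 cells farthest from the median, and r of 0.41 with relative depth. The points share library and depth, and the part of these in the correlation was not tested. Cells 17 and 12 had few of both (1 and 4 Gpr genes, 1961 and 3454 genes). Cells 4 and 13 had 5 and 7 Gpr genes with 4295 and 4389 genes. Summed over members, FPKM ranged from 44.4 to 880 with a median of 376, and the leading gene alone made up 12.8 to 82.3% of this sum.

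**Figure D4:**
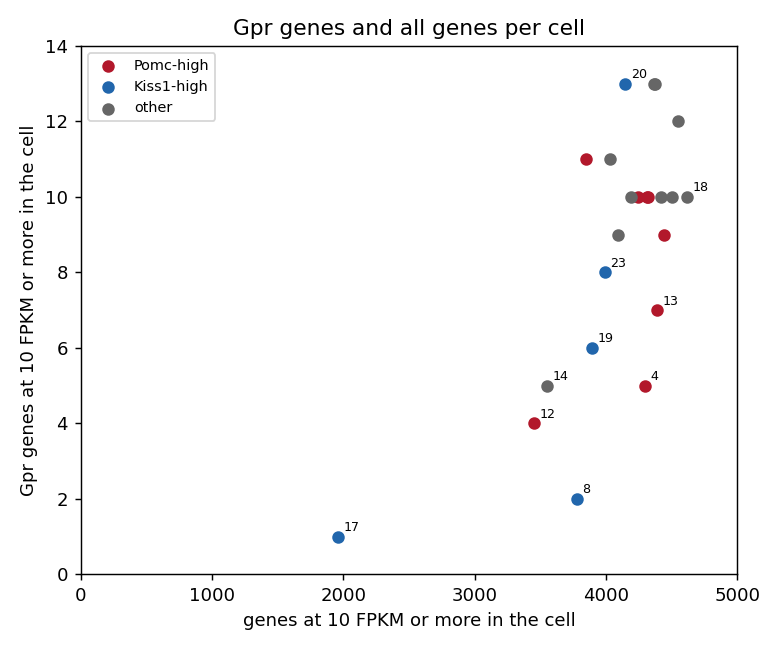
Gpr genes at 10 FPKM or more (y axis) against all genes at 10 FPKM or more (x axis) in each of the 23 cells, coloured by peptide type, with cell numbers beside some points. Cell 17 has 1 Gpr gene among 1961 genes. Cells 8 and 19 have 2 and 6 among 3777 and 3891 genes, below the median of 4245 over all cells.

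Of the 17 class A receptors listed here with a proposed ligand, only Gpr35 reached 10 FPKM (13.0 in cell 22). Gpr18 reached 8.80 in cell 12 and Gpr119, which binds lipid amides, 7.91 in cell 3. Receptors known from microglia and other immune cells appeared singly: Gpr34 at 3.04 in cell 8, Gpr84 at 3.12 in cell 23 and Gpr183 at 3.26 in cell 18. Microglia markers summed to 0.176, 0.577 and 0.0994 FPKM in these 3 cells. Gpr17, known from oligodendrocyte precursors, was at 3.26 FPKM in cell 15, where the precursor markers summed to 0.0132.

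The signalling partners of these receptors were also described. Of 13 G alpha subunits, 11 reached 10 FPKM in a cell and 6 did so in at least 12 cells. Gnas, which couples receptors to cyclic AMP production, was in all 23 cells (median 1537 FPKM, highest in cell 12 at 4382), and the inhibitory Gnao1 also in all 23 (median 82.9). Of 9 adenylyl cyclases, which make cyclic AMP, 5 reached 10 FPKM and 0 did so in 12 cells. Adcy3 was the most frequent, in 10 cells, with a median of 8.76. Of 7 arrestins and receptor kinases, which switch receptors off, 5 reached 10 FPKM, and Arrb2 was the most frequent at 8 cells. Of 23 measured orphan and adhesion receptors with other symbols, 9 reached 10 FPKM and 0 did so in 12 cells, with the adhesion receptor Bai3 the most frequent at 7 cells.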

How the data were processed

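Expression was measured in 23 single arcuate neurons (SmartSeq2 amplification and an Ovation Rapid library, per the labels' protocols). The deposited table holds FPKM per gene and cell, made by the authors with CASAVA 1.8, TopHat and Cufflinks against mm10, per the submitters' processing notes. TopHat and Cufflinks versions and the gene annotation were not given in the sources used here. As for the unit, that of the deposited values is recorded as other, because 12 leftover summary lines, some below 0, sat among the 23896 lines; they were left out. The 286 lines that repeated another were dropped, 27 lines named as dates were kept apart, and 124 symbols with several lines were summed, which left 23373 genes. Cell numbers only name the cells.

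Counts of cells used 10 and 1 FPKM, and differences used log2(FPKM + 1), which understates the change of low genes. Intervals are exact Clopper-Pearson at 95% and treat cells as independent. Read depth is unknown. Relative depth was the commonest ratio, over genes, of a value in cell 12 to that in each cell, both under 0.5 FPKM. It was scaled to 1 in the lowest cell. Amplified reads carry no molecular identifiers. Python 3.11.15, pandas 2.3.3, numpy 2.4.6, scipy 1.17.1 and matplotlib 3.10.9 were used, and the summaries were tested on simulated data. No test between types was made, since cells are not replicates. Named genes were those at 10 FPKM in at least 2 cells, with those in 1 cell named by cell and value. The text gives every cell for part of them and the heat map shows every cell for 26 of the 27. The counts include all 92 members, of which 2 are not reported here by name. Roles were assigned from general knowledge. The members and lists were chosen with earlier results of these data known, and the low Gpr101 of Kiss1 cells is not independent support. Promoters came from RefSeq (GRCm38.p6), where 66 of 92 members had one, and symbols of 92 of 92 matched.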

Additional observations from a re-analysis of the deposited data

How the results depend on the processing

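Of 80 alternative values of the group results, 54 stayed within their limits and 26 moved. Of 213 alternative values of single genes, 179 stayed and 34 moved. Only the differences of Gpr101 and Gpr165 could change sign, and none did. Counts of genes or cells stayed if they lay within a fixed ratio of the reported count, even where the genes differed. In set 1 alone, for example, 4 genes passed the size rule for Pomc-high cells (Gpr165, Gpr107, Gpr12 and Gpr180). Only Gpr165 of these passed over both sets. At a 20 FPKM threshold, 22 Gpr genes were found in at least 1 cell and the median per cell was 6; in set 2 alone, 25 were found in at least 1 cell. The number found only in Pomc-high cells (0) became 3 at 5 FPKM (Gpr133, Gpr157 and Gpr161) and with rescaled cells, 1 at 20 FPKM (Gpr176) and 2 in set 2 alone (Gpr83 and Gpr107). The number only in Kiss1-high cells (1) became 0 at 5 and at 20 FPKM, with rescaled cells, in set 1 alone, with Kiss1 at 1000 FPKM or more, and without cells 20 and 23. The number only in other cells (3) became 1 at 20 FPKM (Gpr107), 0 in set 2 alone, 1 with Pomc-high from 500 FPKM (Gpr52), 6 with Pomc-high from 2000 FPKM, 5 without cells 20 and 23 and 5 without cells 11, 12, 14 and 17. The number differing by 1 or more for Pomc-high cells (6) became 3 with the limit at 500 FPKM, 10 with a pseudocount of 0.1, 1 with a pseudocount of 10 (Gpr165) and 11 with rescaled cells. For Kiss1-high cells (11) it became 6 with the limit at 1000 FPKM, 19 with a pseudocount of 0.1 and 2 with a pseudocount of 10 (Gpr101 and Gpr165). So restriction to a type rests on the threshold, and Gpr101 and Gpr165 kept their directions in each setting: -5.997 to -2.37 for Gpr101 in Kiss1-high cells and -2.62 to -1.89 for Gpr165 in Pomc-high cells, or -1.78 in set 2 alone. The cause of each move was not tested, beyond the fewer cells that a set alone holds. Alternatives without cells 20 and 23, without cells 11, 12, 14 and 17, and relative to the median were chosen after seeing the data. No paired analysis was possible because the cells form 1 group and their numbers only name them. Single-cell amplification leaves low values unreliable, and a gene listed at 0 is not shown to be absent.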
